A study of Lactuca sativa with 9 samples.

Results

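In the mature leaf of 3 romaine lettuces, 72 of 38910 annotated genes were read in an all-or-none way that set ‘Manatee’ (ISL) apart from the other genotypes. A set of 40 genes was silent in ‘Manatee’ (ISL): each had at most 3 raw counts summed over its 3 libraries and a mean of at least 50 in both 60184 (SSL) and ‘Okeechobee’ (LSL). A set of 32 genes showed the reverse, with a mean of at least 50 in ‘Manatee’ (ISL) and a sum of at most 3 in each of the others. These raw counts chose the members, so the contrast of ‘Manatee’ (ISL) with the other genotypes is described for them and not tested. ‘Manatee’ and ‘Okeechobee’ are commercial cultivars of intermediate and long shelf-life, and 60184 is an experimental breeding line of short shelf-life. All plants were Lactuca sativa var. Longifolia, untreated, raised in pots under 16 h of light at 22 °C, and poly-A RNA was sequenced from leaf at maturity before harvest. Each genotype had 3 libraries, and each is a single line or cultivar. The labels do not say whether the libraries of a genotype came from separate plants. The study calls those of 60184 (SSL) and ‘Okeechobee’ (LSL) biological replicates and refers to individuals, while for ‘Manatee’ (ISL) this is not given in the sources used here, and p-values measure the spread between these libraries.

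Cultivars of one crop species differ in gene content and in the sequence of their genes as well as in expression. Genes for defence receptors with leucine-rich repeats, for receptor kinases and for enzymes of specialised metabolism lie in families of tandem copies, and such families are known for copies present in one plant line and absent from another. Reads here were placed on the genome of one crisphead cultivar, Salinas, so a gene that is switched off, a gene that is missing and a gene too diverged for its reads to be placed all leave an empty row. Which of these holds for a member was not tested and cannot be told apart with counts alone.

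The 9 libraries held 24108451 to 32840811 reads assigned to genes, with 24545 to 25234 genes having a read in each, and ‘Manatee’ (ISL) had 29927056 to 32299035. Reads outside annotated genes made up 5.24% to 12.0%, with the highest shares in ‘Okeechobee’ (LSL) replicates 1 and 3. No pair of replicates agreed within sampling noise. Genes whose descriptions name antenna proteins, photosystem I subunits or the small subunit of Rubisco, the defining genes of green leaf, had reads in all 34 cases. Their summed level was 25790 to 51958 CPM (counts scaled to the library total) in 60184 (SSL), 6498 to 13454 in ‘Manatee’ (ISL) and 6098 to 12221 in ‘Okeechobee’ (LSL). The 13 genes of dividing cells summed to 137 to 145, 226 to 232 and 261 to 291 CPM in the same order. No member belonged to a marker list, but the lists match words of descriptions, which only 18 members have. Members without a description, the whole set expressed in ‘Manatee’ (ISL) only included, could not match. No described gene matched the vascular or root words, and the part of tissue make-up in the results was not tested. In bulk leaf RNA, fewer cells of a type and less RNA per cell cannot be told apart.

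Within the silent set, 29 of 40 genes had no read in any ‘Manatee’ (ISL) library, 5 had 1 read in all, 3 had 2 and 3 had 3. The whole set gave 20 reads in ‘Manatee’ (ISL), of which 2 fell in replicate 1, 5 in replicate 2 and 13 in replicate 3. The same genes held 14494, 20162 and 25941 reads in the 60184 (SSL) libraries and 27902, 23218 and 22338 in those of ‘Okeechobee’ (LSL). The set expressed in ‘Manatee’ (ISL) only was the mirror image, with 9176, 8155 and 8516 reads in its libraries. It had 7 reads in all of 60184 (SSL) and 14 in all of ‘Okeechobee’ (LSL), and 24 of its 32 genes had none in those 6 libraries.

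**Figure D1:**
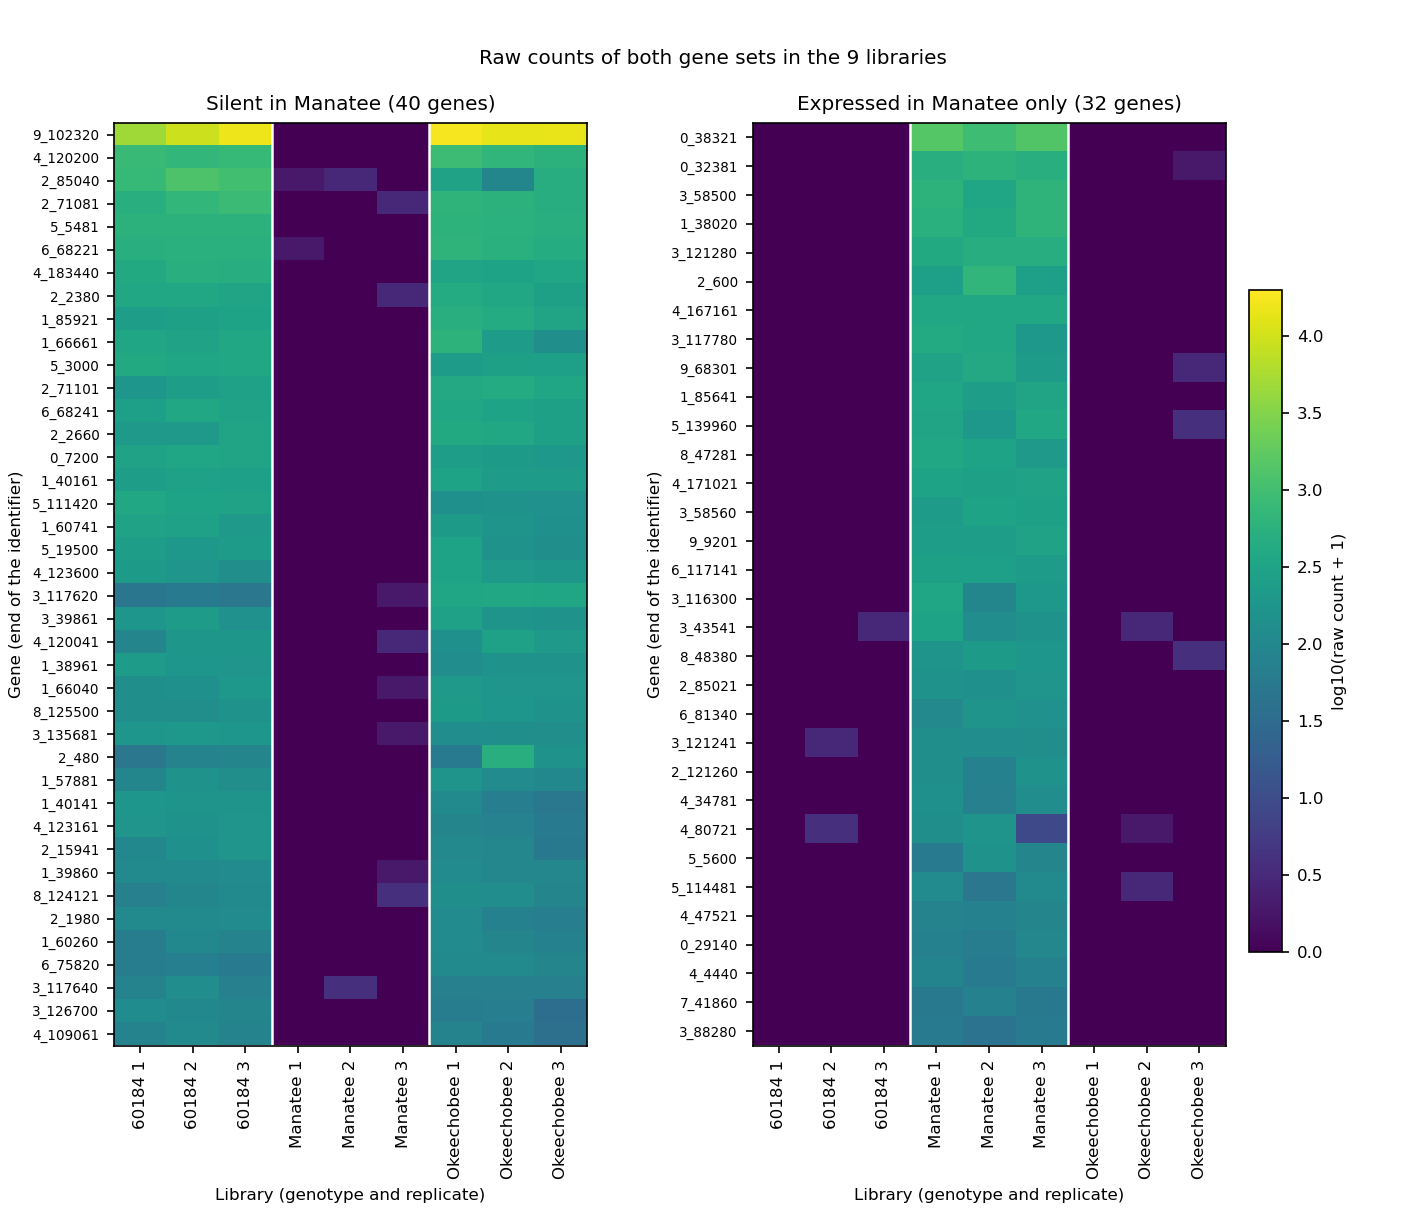
Heat maps of log10(raw count + 1) for the 40 genes silent in ‘Manatee’ (left) and the 32 genes expressed in ‘Manatee’ only (right), with 1 row per gene ordered by its mean where expressed and 1 column per library. The dark middle columns on the left hold 20 reads in all, and the dark outer columns on the right hold 21.

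Most members were read at modest depth where they were expressed. Raw counts are not divided by gene length, so they give the depth behind a value and not an order of transcript levels. The median count of the silent set was 192 in 60184 (SSL) and 208 in ‘Okeechobee’ (LSL), against 669 and 589 over all 17529 genes with a mean of at least 50 in both. The median of the set expressed in ‘Manatee’ (ISL) only was 237, against 596 over the 18262 genes with a mean of at least 50 in that cultivar. The replicates were about as even as those of other genes. The median coefficient of variation of the silent set was 14.9% in 60184 (SSL), where all eligible genes had 12.3%, and 12.7% in ‘Okeechobee’ (LSL), where they had 15.6%. That of the other set was 21.1% in ‘Manatee’ (ISL), against 16.9%.

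Product descriptions were available here for 3733 genes, from a partial listing of genes that concerns 60184 (SSL) and ‘Okeechobee’ (LSL). They covered 18 genes of the silent set and none of the set expressed in ‘Manatee’ (ISL) only, so the second set is known here by identifier alone. No sequence of the members was at hand. The gene with the most reads was Lsat_1_v5_gn_9_102320 on chromosome 9, described as a catechol oxidase or tyrosinase. Enzymes of this kind, the polyphenol oxidases, turn o-diphenols into quinones that polymerise to brown pigment when lettuce tissue is cut or bruised. It had 4892, 9438 and 15387 counts in 60184 (SSL), 17209, 13822 and 14253 in ‘Okeechobee’ (LSL), and 0 in each ‘Manatee’ (ISL) library. All 6 libraries of the other genotypes thus lay far above those of ‘Manatee’ (ISL). Scaled to library size the gene had 149, 311 and 475 CPM in 60184 (SSL) and 569, 480 and 591 CPM in ‘Okeechobee’ (LSL), so that the libraries of these genotypes overlapped in raw counts and narrowly did not once scaled. The means were 312 ± 163 CPM in 60184 (SSL) and 547 ± 58.7 CPM in ‘Okeechobee’ (LSL) (SD, n = 3). With a floor of 3 reads over the 3 libraries, ‘Manatee’ (ISL) was at least 9620-fold lower than 60184 (SSL) and at least 16863-fold lower than ‘Okeechobee’ (LSL). One other gene had the same description, Lsat_1_v5_gn_0_6400, looked up after its values were seen. It had 344, 111 and 154 counts in 60184 (SSL), 5, 20 and 0 in ‘Manatee’ (ISL) and 4, 8 and 0 in ‘Okeechobee’ (LSL). Thus of the 2 polyphenol oxidase genes described here, ‘Manatee’ (ISL) had at most 20 reads in a library for either, ‘Okeechobee’ (LSL) had many for 1, and all libraries of 60184 (SSL) had over 100 for both.

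Further members encode enzymes of primary and phenolic metabolism. Sucrose synthase (Lsat_1_v5_gn_1_40161), which splits sucrose into UDP-glucose and fructose, had 244, 288 and 269 counts in 60184 (SSL), 313, 234 and 228 in ‘Okeechobee’ (LSL) and no read in ‘Manatee’ (ISL). Acetylornithine transaminase (Lsat_1_v5_gn_5_5481), a step of ornithine and arginine synthesis, had 583, 582 and 571 counts in 60184 (SSL) and 592, 564 and 513 in ‘Okeechobee’ (LSL), again with no read in ‘Manatee’ (ISL). These values lay within 2-fold of each other in all 6 libraries for each gene. The decarboxylating malate dehydrogenase (Lsat_1_v5_gn_3_135681), a malic enzyme that releases CO2 from malate to give pyruvate, had 183, 198 and 184 counts in 60184 (SSL), 126, 140 and 130 in ‘Okeechobee’ (LSL) and 1 read in ‘Manatee’ (ISL) replicate 3. A caffeoyl-CoA O-methyltransferase (Lsat_1_v5_gn_2_85040), which makes feruloyl-CoA on the way to lignin and other phenylpropanoids, was the least even of these enzymes. It had 763, 1268 and 1014 counts in 60184 (SSL), 300, 94 and 474 in ‘Okeechobee’ (LSL), and 1, 2 and 0 in ‘Manatee’ (ISL). The ratio of 60184 (SSL) to ‘Manatee’ (ISL) was 986, with an exact 95% counting interval of 337 to 4783. This interval leaves out the spread between replicates, and the rule chose the gene by the same counts. A cytochrome P450 of the CYP2 text (Lsat_1_v5_gn_4_120041), one of a large family of oxygenases, had 89, 190 and 185 counts in 60184 (SSL), 141, 283 and 207 in ‘Okeechobee’ (LSL), and 2 reads in ‘Manatee’ (ISL) replicate 3.

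Genes for transport, plastid and nuclear proteins were also silent in ‘Manatee’ (ISL). The boron transporter 4-related gene (Lsat_1_v5_gn_3_39861), of a family that exports borate from cells in Arabidopsis, had 184, 228 and 146 counts in 60184 (SSL) and 292, 167 and 157 in ‘Okeechobee’ (LSL). A gene for CLPC1 (Lsat_1_v5_gn_5_111420), the chaperone that feeds proteins to the Clp protease of chloroplasts, had 366, 310 and 296 counts in 60184 (SSL) and 143, 163 and 149 in ‘Okeechobee’ (LSL). Both had no read in ‘Manatee’ (ISL). A ferric reductase-like gene (Lsat_1_v5_gn_6_68221), of a family of membrane proteins that reduce ferric iron, had 495, 545 and 545 counts in 60184 (SSL), 632, 545 and 450 in ‘Okeechobee’ (LSL) and 1 read in ‘Manatee’ (ISL). The next gene on the chromosome (Lsat_1_v5_gn_6_68241) carries the text of MAN1, an inner nuclear membrane protein with a LEM domain in animals. It had 266, 360 and 305 counts in 60184 (SSL) and 361, 306 and 272 in ‘Okeechobee’ (LSL), with no read in ‘Manatee’ (ISL). A DNA helicase, an enzyme that unwinds duplex DNA (Lsat_1_v5_gn_6_75820), had 66, 70 and 59 counts in 60184 (SSL) and 113, 115 and 89 in ‘Okeechobee’ (LSL). A gene with an EMSY N-terminal (ENT) domain (Lsat_1_v5_gn_5_19500), found in proteins that bind chromatin, had 242, 196 and 230 counts in 60184 (SSL) and 317, 160 and 136 in ‘Okeechobee’ (LSL). Neither the helicase nor the ENT gene had a read in ‘Manatee’ (ISL).

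Receptor kinases and repeat proteins made up the rest of the described members. Among described genes with a mean of at least 50 in both 60184 (SSL) and ‘Okeechobee’ (LSL), 2 of 331 protein kinases (0.604%) and 4 of 181 disease resistance, leucine-rich repeat or ankyrin genes (2.21%) were members, beside 0.573% of all 3142. These shares come from the partial listing and were not tested. A kinase with an S-locus glycoprotein domain (Lsat_1_v5_gn_1_66661), the build of cell-surface receptors first known from Brassica self-incompatibility, had 336, 301 and 385 counts in 60184 (SSL), 594, 230 and 139 in ‘Okeechobee’ (LSL) and none in ‘Manatee’ (ISL). A serine-threonine kinase with a PAS domain (Lsat_1_v5_gn_1_40141), a sensor module, had 183, 166 and 165 counts in 60184 (SSL) and 111, 68 and 51 in ‘Okeechobee’ (LSL). Leucine-rich repeats form the ligand-binding face of many plant receptors. One gene of this text (Lsat_1_v5_gn_1_85921) had 246, 272 and 316 counts in 60184 (SSL) and 504, 436 and 319 in ‘Okeechobee’ (LSL). Another, related by its text to disease resistance proteins (Lsat_1_v5_gn_2_15941), had 99, 141 and 177 counts in 60184 (SSL) and 103, 95 and 53 in ‘Okeechobee’ (LSL). Like the PAS-domain kinase, both leucine-rich repeat genes had no read in ‘Manatee’ (ISL). Ankyrin repeats mediate contacts between proteins, and 2 neighbouring genes of chromosome 2 carry this text. The first (Lsat_1_v5_gn_2_71081) had 496, 711 and 841 counts in 60184 (SSL), 628, 585 and 485 in ‘Okeechobee’ (LSL) and 2 reads in ‘Manatee’ (ISL). The second (Lsat_1_v5_gn_2_71101) had 184, 246 and 293 counts in 60184 (SSL), 394, 433 and 338 in ‘Okeechobee’ (LSL) and none in ‘Manatee’ (ISL).

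**Figure D2:**
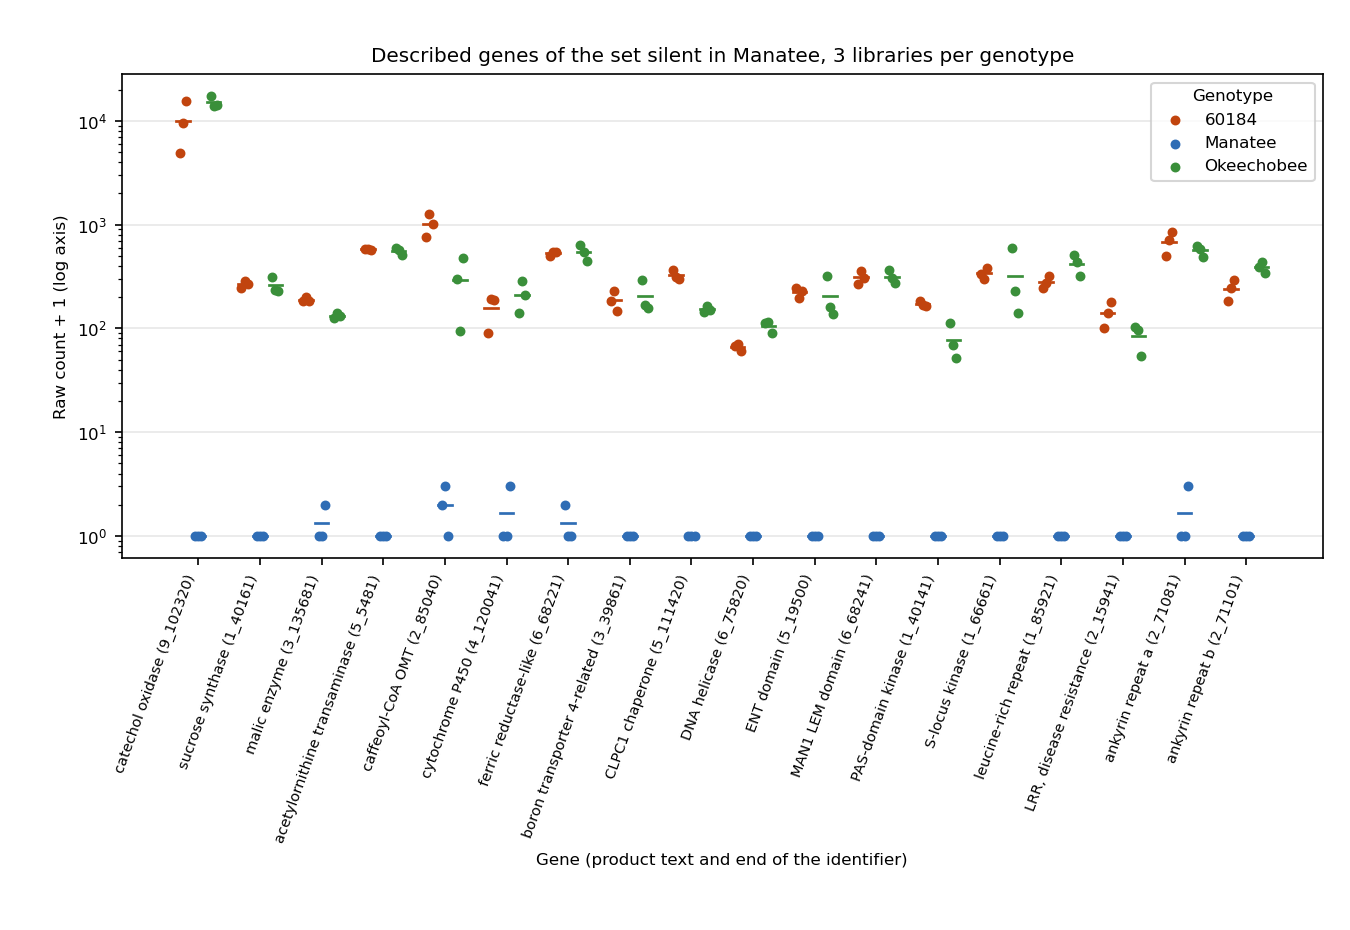
Raw count + 1 on a log axis for the 18 described genes silent in ‘Manatee’, with 3 points per genotype (1 per library) and a bar at their mean. Points of ‘Manatee’ lie between 1 and 3 (0 to 2 reads), while the lowest point of the other genotypes stands for 51 reads, in the PAS-domain kinase of ‘Okeechobee’.

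Genes that share a description with a member were, for the most part, read in ‘Manatee’ (ISL), as far as the partial listing goes. All 3 other caffeoyl-CoA O-methyltransferase genes had a mean of at least 50 there, as did 18 of 21 other cytochrome P450 genes of the same text, 46 of 61 other leucine-rich repeat genes and 4 of 5 other ankyrin repeat genes. The boron transporter text had 1 other gene, which is the next identifier on chromosome 3 and is described with the neighbours of members. The helicase text had 1 other gene as well, with a mean of 983 counts in 60184 (SSL), 0.667 in ‘Manatee’ (ISL) and 0 in ‘Okeechobee’ (LSL). No other gene in the listing shared the text of sucrose synthase, the malic enzyme, acetylornithine transaminase, CLPC1 or the ferric reductase-like gene. The same held for the MAN1, ENT, S-locus kinase and PAS-domain kinase texts, so none of these members could be compared with a relative. Reads that fit more than one copy were not counted, so counts of near-identical copies are uncertain.

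The 22 silent members without a description included the gene with the second most reads, Lsat_1_v5_gn_4_120200. It had 815, 713 and 772 counts in 60184 (SSL), 891, 681 and 579 in ‘Okeechobee’ (LSL) and none in ‘Manatee’ (ISL). Lsat_1_v5_gn_4_183440 had 414, 517 and 479 counts in 60184 (SSL) and 327, 309 and 348 in ‘Okeechobee’ (LSL), and Lsat_1_v5_gn_5_3000 had 410, 352 and 365 and then 234, 282 and 271, both with no read in ‘Manatee’ (ISL). A pair of members was less even between the 2 genotypes that expressed them. Lsat_1_v5_gn_3_117620 had 47, 59 and 50 counts in 60184 (SSL), 345, 366 and 340 in ‘Okeechobee’ (LSL) and 1 in ‘Manatee’ (ISL). Lsat_1_v5_gn_2_480 had 49, 84 and 91 counts in 60184 (SSL) and 58, 498 and 152 in ‘Okeechobee’ (LSL), where replicate 2 stood far above the others, and none in ‘Manatee’ (ISL).

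Few genes lay near the limit on the sum, but many lay near the limit on the mean: with a mean of at least 20 the sets held 63 and 50 genes, and with 100 they held 28 and 26. Of the eligible genes, 4 had a ‘Manatee’ (ISL) sum of 4 to 10, 14 had 11 to 30 and 66 had 31 to 100. Just inside, 3 members had 3 reads: the caffeoyl-CoA O-methyltransferase, Lsat_1_v5_gn_3_117640 with 84, 129 and 73 counts in 60184 (SSL) and 73, 73 and 74 in ‘Okeechobee’ (LSL), and Lsat_1_v5_gn_8_124121 with 73, 92 and 108 against 137, 128 and 89. Lsat_1_v5_gn_3_117620, with a mean of 52 in 60184 (SSL), and Lsat_1_v5_gn_3_126700, with a mean of 56 in ‘Okeechobee’ (LSL), lay just inside the other limit. Just outside lay Lsat_1_v5_gn_2_1040, a subunit H of the V-type proton ATPase that acidifies the vacuole. It had 428, 409 and 377 counts in 60184 (SSL), 232, 202 and 185 in ‘Okeechobee’ (LSL) and 5 reads in ‘Manatee’ (ISL) replicate 3. Lsat_1_v5_gn_2_3000 also missed the limit, with 4 reads in the same ‘Manatee’ (ISL) library. It had 20094, 9696 and 11911 counts in 60184 (SSL) and 29737, 18057 and 10213 in ‘Okeechobee’ (LSL). Lsat_1_v5_gn_3_60880 had no read in ‘Manatee’ (ISL) but a mean of 48.3 in 60184 (SSL).

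Side by side with these, the genes expressed in ‘Manatee’ (ISL) only covered a narrower range of counts, with means of 52.7 to 1255, and 26 of 32 at 100 or more. Lsat_1_v5_gn_0_38321, which has no chromosome number in its identifier, led with 1490, 907 and 1367 counts and no read in the other 6 libraries. It was at least 1292-fold higher than in 60184 (SSL) and at least 1123-fold higher than in ‘Okeechobee’ (LSL), with a floor of 3 reads per genotype. Lsat_1_v5_gn_0_32381 had 521, 601 and 511 counts in ‘Manatee’ (ISL) and 1 read in ‘Okeechobee’ (LSL) replicate 3. Lsat_1_v5_gn_3_58500 had 596, 348 and 620 counts, and Lsat_1_v5_gn_1_38020 had 529, 411 and 614. Lsat_1_v5_gn_3_121280 had 410, 473 and 475, and this gene and the 2 before it had no read outside ‘Manatee’ (ISL). In 30 of the 32 genes all 3 libraries reached 50 counts. The others were Lsat_1_v5_gn_4_80721, with 136, 167 and 8 counts in ‘Manatee’ (ISL), 3 reads in 60184 (SSL) and 1 in ‘Okeechobee’ (LSL), and Lsat_1_v5_gn_3_88280, with 55, 43 and 60 and no read elsewhere. The highest library exceeded the lowest over 3-fold in 2 genes, Lsat_1_v5_gn_4_80721 and Lsat_1_v5_gn_3_116300, which had 351, 93 and 194 counts in ‘Manatee’ (ISL) and none elsewhere. Lsat_1_v5_gn_2_600 had 670 counts in replicate 2 against 267 and 263 in the others.

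Of 12927 genes with at most 3 reads in both 60184 (SSL) and ‘Okeechobee’ (LSL), 11353 had no read in ‘Manatee’ (ISL) either, 34 had a mean between 10 and 50, and the 32 members made up 0.248%. The 40 silent genes were 0.228% of the genes eligible for their set. Just inside the limit for the second set were genes with 3 reads in 1 other genotype. Lsat_1_v5_gn_5_139960 had 327, 198 and 360 counts in ‘Manatee’ (ISL) and 3 reads in ‘Okeechobee’ (LSL) replicate 3, as did Lsat_1_v5_gn_8_48380, with 169, 220 and 182. Just outside were 5 genes with a sum of 4 to 6 in at least 1 of the other genotypes. Lsat_1_v5_gn_0_39700 had the most counts of these, with 260, 234 and 281 in ‘Manatee’ (ISL), 1 read in 60184 (SSL) and 6 in ‘Okeechobee’ (LSL) replicate 3. The remaining 4 were Lsat_1_v5_gn_3_28940, Lsat_1_v5_gn_3_138281, Lsat_1_v5_gn_5_120321 and Lsat_1_v5_gn_8_125780, with ‘Manatee’ (ISL) means of 53.3, 52.3, 73.3 and 68.7.

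How the silent genes compare between the 2 genotypes that express them was not fixed by the rule, which asks only for a mean of 50 in each. Among the 22113 genes that reached 10 counts in 3 or more of these 6 libraries, edgeR (quasi-likelihood test, Benjamini-Hochberg adjustment) called 8 of the 40 members at an adjusted p under 0.05, or 20%. Over all tested genes 31.5% were called, and over the 17489 other genes with a mean of at least 50 in both it was 32.0%. Of the members, 5 were higher in ‘Okeechobee’ (LSL), 12.5% against 16.2% of all genes, and 3 were lower, 7.5% against 15.3%. The remaining 32 did not pass, which does not show that they are equal. The fold change was under 2-fold in 37 of 40 members (92.5%), as in 83.8% of the other genes with a mean of at least 50. The median log2 fold change of the members was 0.10, with 0.01 over all tested genes, and the median of its absolute size was 0.40, with 0.39 over the other genes with a mean of at least 50. The share called among members was thus below that of the background, and this difference was not tested.

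The gene with the largest difference was Lsat_1_v5_gn_3_117620, 7.69-fold higher in ‘Okeechobee’ (LSL) with a log2 fold change of 2.94 (SE 0.19, adjusted p = 9.6e-05, edgeR), and its 3 libraries there lay above all 3 of 60184 (SSL). The second ankyrin gene was higher by a log2 fold change of 0.88 (SE 0.17, adjusted p = 0.0077) and the leucine-rich repeat gene of chromosome 1 by 0.77 (SE 0.16, adjusted p = 0.0094). The DNA helicase was higher by 0.88 (SE 0.24, adjusted p = 0.026) and Lsat_1_v5_gn_2_2660, which has no description, by 0.67 (SE 0.20, adjusted p = 0.037). These last calls were lost when 60184 (SSL) replicate 1 or 2 or ‘Okeechobee’ (LSL) replicate 2 was left out. That of the helicase was also lost without 60184 (SSL) replicate 3, that of Lsat_1_v5_gn_2_2660 without ‘Okeechobee’ (LSL) replicate 1, and that of the leucine-rich repeat gene without 60184 (SSL) replicate 2. In the other direction CLPC1 was lower in ‘Okeechobee’ (LSL) by a log2 fold change of -0.91 (SE 0.19, adjusted p = 0.011), and the undescribed Lsat_1_v5_gn_4_123161 by -0.97 (SE 0.21, adjusted p = 0.013). The PAS-domain kinase was lower by -1.0 (SE 0.28, adjusted p = 0.032), a call that was lost without any one of the libraries other than ‘Okeechobee’ (LSL) replicate 1.

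Several large differences did not pass where replicates spread widely. The caffeoyl-CoA O-methyltransferase had the lowest log2 fold change, -1.58 (SE 0.53, adjusted p = 0.058), and all 3 ‘Okeechobee’ (LSL) libraries lay below those of 60184 (SSL). Such a lack of overlap was common: once scaled, it held in 20 of the 40 silent members and in 49.8% of all tested genes. Lsat_1_v5_gn_2_480 had a log2 fold change of 1.86 (SE 0.71, adjusted p = 0.085) with overlapping libraries. The polyphenol oxidase gene had 0.82 (SE 0.34, adjusted p = 0.11), with the highest 60184 (SSL) library at 475 CPM and the lowest ‘Okeechobee’ (LSL) library at 480 CPM. The 2 ankyrin genes differed from each other in this respect, since the first had a log2 fold change of -0.08 (SE 0.17, adjusted p = 0.77); the difference between them was not tested. Under DESeq2 the methyltransferase (adjusted p = 0.0055), Lsat_1_v5_gn_2_480 (adjusted p = 0.013) and the polyphenol oxidase gene (adjusted p = 0.039) did pass. The polyphenol oxidase gene also passed in edgeR without 60184 (SSL) replicate 3, at a log2 fold change of 1.24 (adjusted p = 0.032).

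**Figure D3:**
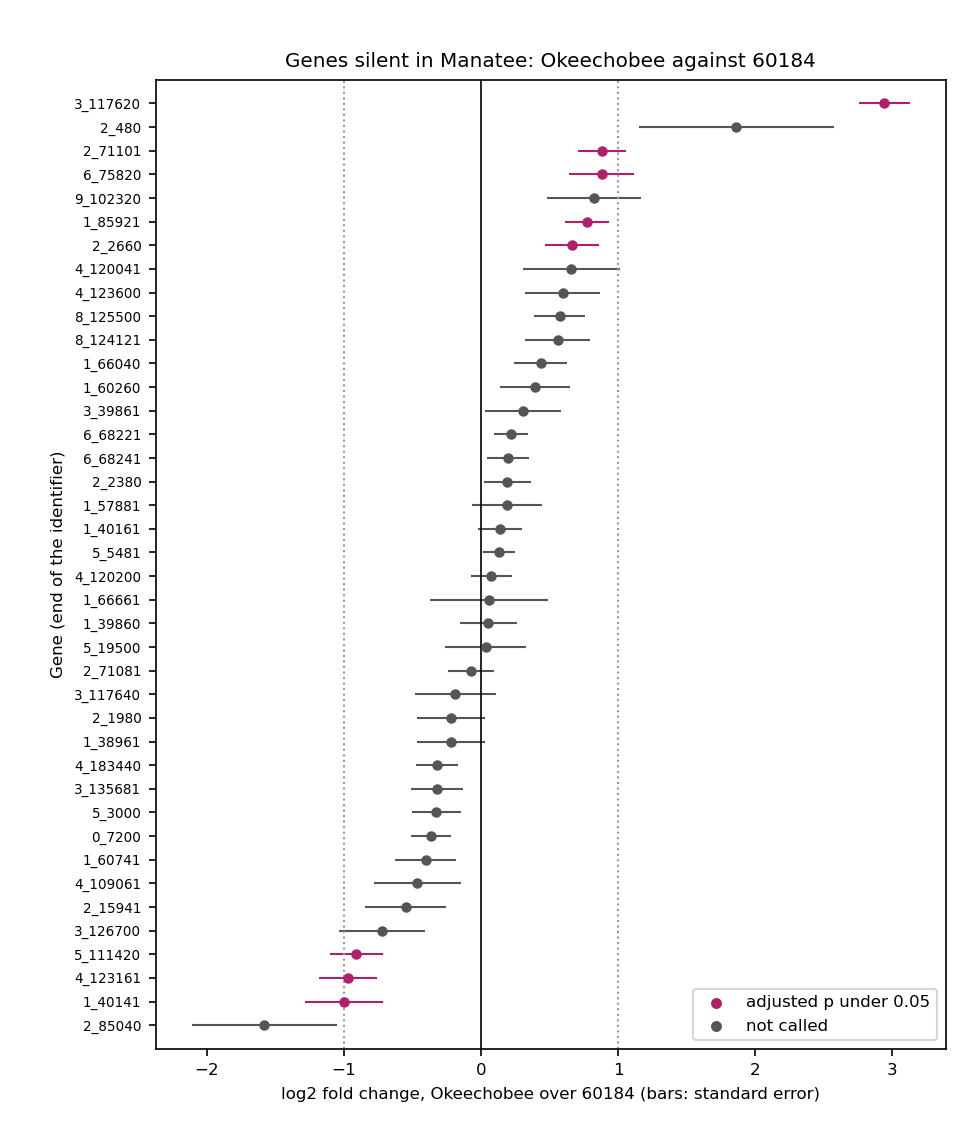
log2 fold change of ‘Okeechobee’ over 60184 for the 40 genes silent in ‘Manatee’, 1 point per gene with its standard error, and dotted lines at 2-fold in either direction. The 8 coloured points passed an adjusted p of 0.05 (5 to the right, 3 to the left), and 37 points lie between the dotted lines.

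Gene identifiers carry the chromosome and a number that rises along it, so their order gives neighbours but no distance in bases. Silent members were found on chromosomes 1 (10 genes), 2 (8), 4 (6), 3 (5), 5 (4), 6 (3), 8 (2) and 9 (1), with 1 more on no numbered chromosome and none on chromosome 7. They were 0.596% of the eligible genes of chromosome 1 and 0.0550% of those of chromosome 9. The genes expressed in ‘Manatee’ (ISL) only were most numerous on chromosomes 3 (8 genes) and 4 (6). On chromosome 3 they were 0.592% of its genes that were off in both others. This share was 0.324% on chromosome 4 and 0.595% among genes on no numbered chromosome. These shares were not tested.

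Many members lay near another member in identifier order. With members at most 50 places apart joined, 16 blocks held 40 of the 72 members, or 55.6%, and 6 of the blocks held genes of both sets. The sets found for 60184 (SSL) by the same rule had 62 of 121 members in such blocks (51.2%) and those for ‘Okeechobee’ (LSL) 12 of 46 (26.1%). A larger set has more members within a fixed gap of each other, so these shares cannot be compared between genotypes. Whether members lay closer than other genes was not tested. Of 7 pairs of members that were direct neighbours, 4 were silent together: the PAS-domain kinase and sucrose synthase, the 2 ankyrin genes, Lsat_1_v5_gn_3_117620 and Lsat_1_v5_gn_3_117640, and the ferric reductase-like gene and the MAN1 text gene. One pair, Lsat_1_v5_gn_3_121241 and Lsat_1_v5_gn_3_121280, was expressed together in ‘Manatee’ (ISL) only, the first with 139, 126 and 130 counts there and 2 reads in 60184 (SSL) replicate 2. In 2 pairs a silent gene sat beside a gene expressed in ‘Manatee’ (ISL) only. The caffeoyl-CoA O-methyltransferase followed Lsat_1_v5_gn_2_85021, which had 162, 144 and 171 counts in ‘Manatee’ (ISL) and none in the other 6 libraries. Lsat_1_v5_gn_2_480 preceded Lsat_1_v5_gn_2_600.

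The largest blocks were on chromosomes 1, 2 and 3. On chromosome 1, 5 members lay within 72 places, and the 49 other detected genes there all had more than 3 reads in ‘Manatee’ (ISL). On chromosome 2, 5 members lay within 59 places together with 3 of 40 other detected genes at 3 reads or fewer in ‘Manatee’ (ISL). The V-type ATPase gene just outside the limit lies within it. The block on chromosome 3 held 2 silent genes and 2 expressed in ‘Manatee’ (ISL) only within 42 places.

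**Figure D4:**
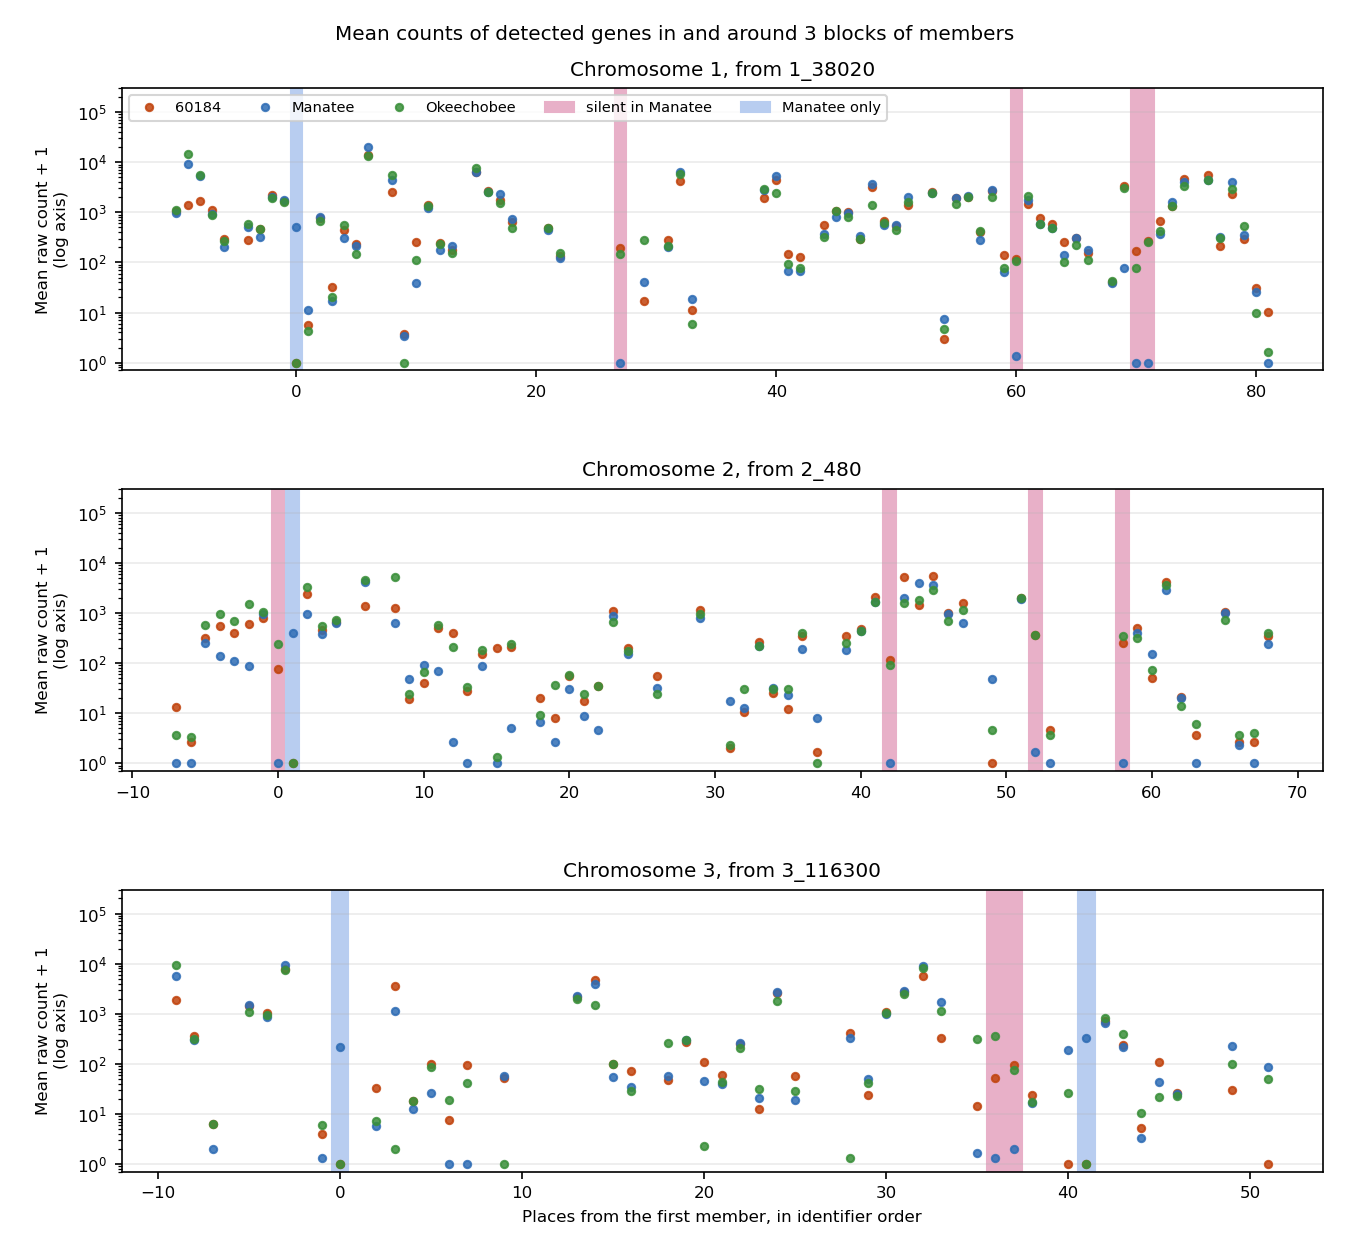
Mean raw count + 1 (log axis) of each detected gene in 60184, ‘Manatee’ and ‘Okeechobee’ across 3 blocks of members and 10 places on either side, with places counted from the first member. Shaded columns mark the 10 silent genes and the 4 genes expressed in ‘Manatee’ only. On chromosome 1 most genes between them have points of all 3 genotypes at similar height, while many on chromosomes 2 and 3 do not. Examples are Lsat_1_v5_gn_2_940 (means of 504, 68.3 and 580 in 60184, ‘Manatee’ and ‘Okeechobee’) and Lsat_1_v5_gn_3_116420 (3643, 1116 and 1 in the same order).

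The genes next to members were not chosen by the rule and could be tested. The silent set had 70 such neighbours, 1 on each side where present. In ‘Manatee’ (ISL) against 60184 (SSL), 39 of them had enough reads, and edgeR called 14 (35.9%, with 18.9% over all 22062 genes tested), 4 higher and 10 lower in ‘Manatee’ (ISL). Lower calls were 25.6% of these neighbours and 8.6% of all genes. Against ‘Okeechobee’ (LSL), 43 were tested and 10 called (23.3%, with 8.28% over all 21937 genes), all 10 lower in ‘Manatee’ (ISL), where 4.54% of all genes were lower and 3.74% higher. Both comparisons use the same ‘Manatee’ (ISL) libraries. Of the 10 calls against ‘Okeechobee’ (LSL), 5 were genes that passed the filter on low counts through ‘Okeechobee’ (LSL) alone, where they had to be high to be tested. Among the 38 neighbours with 10 counts in a library of each genotype 5 were called (13.2%, with 6.95% over all such genes), and against 60184 (SSL) 14 of 38 (36.8%, with 16.9%). The median log2 fold change of the neighbours was -0.26 against 60184 (SSL) and -0.19 against ‘Okeechobee’ (LSL), with -0.01 and -0.02 over all genes. The neighbours of the set expressed in ‘Manatee’ (ISL) only were 59 genes. Against 60184 (SSL) 8 of 32 were called (25%), 5 higher and 3 lower, and against ‘Okeechobee’ (LSL) 8 of 33 (24.2%), 6 higher and 2 lower. Over all genes tested, 10.3% and 3.74% were higher. Their medians were 0.12 and 0.23 for the neighbours. In each comparison 2 of the higher calls were genes that passed the filter through ‘Manatee’ (ISL) alone, where they had to be high. With 10 counts in a library of each genotype, 6 of 29 and 5 of 29 neighbours were called (20.7% and 17.2%, with 16.9% and 6.95% over all such genes). Against 60184 (SSL) these were 3 higher and 3 lower (10.3% higher, with 9.48% over all such genes). Against ‘Okeechobee’ (LSL) they were 4 higher and 1 lower (13.8% higher, with 3.11%). With 3 neighbours on each side, those called against ‘Okeechobee’ (LSL) were 10 higher and 12 lower, with a median of -0.07, so the balance towards higher calls did not hold. The counts depended on single libraries. For the silent set, 14 fell to 8, 8 and 9 without 60184 (SSL) replicate 1, 2 or 3. Without ‘Okeechobee’ (LSL) replicate 1, 2 or 3, 10 fell to 6, 5 and 5. All-gene shares fell as well, to 5.72% to 6.87% and to 2.59% to 4.39%. Without ‘Manatee’ (ISL) replicate 1, 2 or 3, the 14 became 12, 15 and 10, and the 10 became 7, 11 and 7. All-gene shares were then 14.5%, 20.2% and 12.3% against 60184 (SSL) and 2.4%, 9.96% and 2.0% against ‘Okeechobee’ (LSL). The 8 calls of the other set against ‘Okeechobee’ (LSL) fell to 4 or 5 without any library of either genotype but ‘Manatee’ (ISL) replicate 2. In those fits all-gene shares were 2.0% to 4.39%.

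A group of 4 neighbours of silent genes nearly shared their pattern and was picked out after their values were seen. The boron transporter 4-related gene next to the silent one (Lsat_1_v5_gn_3_39881) had 224, 290 and 275 counts in 60184 (SSL), 11, 5 and 5 in ‘Manatee’ (ISL) and 523, 337 and 293 in ‘Okeechobee’ (LSL). Its log2 fold change was -5.11 (SE 0.33, adjusted p = 0.00015, edgeR) against 60184 (SSL) and -5.87 (SE 0.38, adjusted p = 0.00042) against ‘Okeechobee’ (LSL). Thus both genes of this text that are described here had few or no reads in ‘Manatee’ (ISL). A gene whose text joins a protein kinase and a cation-transporting ATPase (Lsat_1_v5_gn_1_40080), just before the PAS-domain kinase, had 2922, 3564 and 3653 counts in 60184 (SSL), 102, 42 and 88 in ‘Manatee’ (ISL) and 3288, 2733 and 3033 in ‘Okeechobee’ (LSL). It was lower by log2 fold changes of -5.36 (SE 0.28, adjusted p = 8e-05) and -5.43 (SE 0.32, adjusted p = 0.00035). Receptor-like protein 54 (Lsat_1_v5_gn_1_60701), of a family of cell-surface leucine-rich repeat proteins without a kinase, had 285, 387 and 366 counts in 60184 (SSL), 10, 13 and 14 in ‘Manatee’ (ISL) and 673, 637 and 462 in ‘Okeechobee’ (LSL). A leucine-rich repeat gene (Lsat_1_v5_gn_8_124100) had 435, 421 and 474, then 12, 18 and 13, then 211, 255 and 324 counts in the same order. In all 4 genes the ‘Manatee’ (ISL) libraries lay far below all 6 others.

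Beside the genes expressed in ‘Manatee’ (ISL) only, 3 neighbours, also picked out after their values were seen, were higher there than in both other genotypes. A cinnamyl-alcohol dehydrogenase (Lsat_1_v5_gn_4_34741), of the enzymes that make the alcohol precursors of lignin, had 6813, 4265 and 6938 counts in ‘Manatee’ (ISL). It had 288, 442 and 527 in 60184 (SSL) and 294, 302 and 140 in ‘Okeechobee’ (LSL), so that the log2 fold change was 3.93 (SE 0.26, adjusted p = 0.00015, edgeR) and 4.50 (SE 0.32, adjusted p = 0.00063). Lsat_1_v5_gn_8_48440 had 403, 433 and 360 counts in ‘Manatee’ (ISL), 1 read in 60184 (SSL) and 13, 5 and 12 counts in ‘Okeechobee’ (LSL). A leucine-rich repeat gene (Lsat_1_v5_gn_3_117761) had 242, 143 and 172 counts in ‘Manatee’ (ISL), none in 60184 (SSL) and 29, 17 and 28 in ‘Okeechobee’ (LSL). In contrast, a gene with the text of IRE1B, a kinase and endoribonuclease of the unfolded protein response (Lsat_1_v5_gn_2_620), was lower in ‘Manatee’ (ISL) beside such a member. It had 1923, 2420 and 2770 counts in 60184 (SSL), 1080, 775 and 952 in ‘Manatee’ (ISL) and 4160, 3109 and 2511 in ‘Okeechobee’ (LSL).

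Around the leucine-rich repeat gene Lsat_1_v5_gn_2_15941, 3 nearby genes had no ‘Manatee’ (ISL) read either: Lsat_1_v5_gn_2_15861 with means of 43.3 and 29.7 counts in 60184 (SSL) and ‘Okeechobee’ (LSL), Lsat_1_v5_gn_2_15901 with 7.67 and 45, and Lsat_1_v5_gn_2_15981 with 10.3 and 17.0. They did not form an unbroken run, since Lsat_1_v5_gn_2_15881, between the first and the second, had 1455, 1408 and 1343 counts in ‘Manatee’ (ISL), more than in any library of the other genotypes. Taking the nearest gene on each side with at least 10 reads over the 9 libraries, 8 of the 67 non-members around silent genes (11.9%) had at most 3 reads in ‘Manatee’ (ISL), against 989 of 25470 non-members of the whole table (3.88%). Around the genes expressed in ‘Manatee’ (ISL) only it was 3 of 59 (5.08%). Some of the 8 had few reads in every genotype, such as Lsat_1_v5_gn_2_2401 with at most 5 in any library. For such genes a low sum in ‘Manatee’ (ISL) says little.

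With the genotypes exchanged, the same rule found 50 genes silent in 60184 (SSL) only and 71 expressed there only. For ‘Okeechobee’ (LSL) it found 23 and 23. ‘Manatee’ (ISL), with 40 and 32, thus lay between the other genotypes for both sets. These counts were not tested, since each genotype has 1 value.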

How the data were processed

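Poly-A RNA of leaf was sequenced as paired reads of 150 bp from 3 genotypes with 3 libraries each. Per the study's methods, the authors trimmed reads with Cutadapt and aligned them to the Lsativa_467_v5 genome with STAR. HTSeq, SAMtools and in-house scripts then served to remove potential PCR duplicates and to count uniquely mapped reads. The deposited counts per gene are not normalized. Whether counting used strand is not given in the sources used here, so a gene and an overlapping or antisense gene cannot be told apart. Rows that name no gene were left out, and reads outside annotated genes were 5.24% to 12.0% of a library. Members were chosen by raw counts, and the members and lists were chosen with earlier results of these data known.

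Tests used edgeR 4.0.16 in R 4.3.3 (TMM scaling, robust quasi-likelihood fit of the 2 genotypes compared, genes reaching 10 counts in 3 or more libraries, Benjamini-Hochberg adjustment over all genes tested, threshold 0.05), checked on simulated data. Folds against genotypes without reads are lower bounds at CPM scale with 3 counts over the genotype as the floor, and ratios to 1 to 3 reads have exact 95% conditional intervals, both covering counting error only. Genes named by rule are members with a description, the 5 of highest mean in each set, those just inside and the genes just outside each threshold, the members with the largest and smallest log2 fold change of ‘Okeechobee’ (LSL) against 60184 (SSL), and members next to each other. Other members and neighbours were named after their values were seen. Summaries used Python 3.11.15 with pandas 2.3.3 and numpy 2.4.6, and figures matplotlib 3.10.9. Alternatives were DESeq2 1.42.0 and its size factors, library size only, 1 CPM or no filter, all 9 libraries in 1 model, the replicate number as a block, leaving out each library, other limits of the rule, 3 neighbours on each side and, chosen after seeing the data, only neighbours with 10 counts in a library of each genotype. Gene order comes from identifiers. No sequence or coordinate was used here.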

Additional observations from a re-analysis of the deposited data

How the results depend on the processing

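With a mean of at least 20 the silent set grew to 63 and the set expressed in ‘Manatee’ (ISL) only to 50, and leaving out single libraries gave 40 to 43 and 31 to 35. All 40 silent genes remained with up to 10 reads allowed, 29 with none, 28 at a mean of 100 and 37 with TMM-scaled counts. Replicate numbers did not pair the libraries, since same-numbered deviations correlated at -0.30 to 0.28. The 5 silent genes higher in ‘Okeechobee’ (LSL) became 8 with DESeq2, 3 with the replicate block and 2 to 5 with a library left out, and the 3 lower genes 2 to 3. Neighbours called (for the silent set 14 against 60184 (SSL) and 10 against ‘Okeechobee’ (LSL), for the other set 8 and 8, in this order) became 36 of 122, 25 of 126, 20 of 104 and 22 of 105 tested with 3 on each side. These were shares of 29.5%, 19.8%, 19.2% and 21%, each below that with 1 on each side, and 19.2% is close to the 18.9% of all genes. With 10 counts required in a library of each genotype, an alternative chosen after seeing the data, they became 14, 5, 6 and 5, since genes that pass the filter through 1 genotype drop out. With the replicate block they became 11, 6, 7 and 5, and with a library left out 8 to 15, 5 to 11, 6 to 9 and 4 to 7. Over all genes tested, the block called 10.5% against 60184 (SSL) and 2.72% against ‘Okeechobee’ (LSL). With a library left out these all-gene shares were 5.72% to 20.2% and 2.0% to 9.96%. Against ‘Okeechobee’ (LSL) the 8 became 13 with DESeq2 and 14 with all 9 libraries in 1 model. The share over all genes tested rose as well, from 8.28% to 16.7% and 14.1%, and the cause was not tested. Of 520 alternatives for single genes, 493 kept their call, 17 lost it, 10 gained it and 0 turned direction. Depth limits the silent calls, since 3 reads over 3 libraries cannot separate weak expression from none.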
